A study of Mus musculus with 4 samples.

Results

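The serum amyloid A genes Saa1, Saa2, Saa3 and Saa4 were followed in mouse liver over 4 ages. They were found through the array annotation, as probe sets that carry 1 of these gene symbols and no other. This gave 6 probe sets of 45101 on the array and 4 genes of 18193 that had such a probe set. A probe set is a group of short probes for 1 transcript. All 4 genes passed the filter on level, a mean of at least 3.74 on the log2 scale, which 11582 genes passed.

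The groups were male mice aged 4, 8, 13 and 21 months. All were of the inbred strain C57BL/6J and ate a low-fat diet ad libitum. For each age, total liver RNA from 6 mice was combined and hybridised to 1 oligonucleotide array, so 4 arrays cover the 4 ages. There were no replicate arrays, no p-value is given, and the number of arrays limits the precision. A pool gives 1 value, so the spread between mice is unknown and how many of the 6 mice had a given level cannot be told. In whole liver, fewer cells of a type and less RNA per cell cannot be told apart either.

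Serum amyloid A proteins are small apolipoproteins that travel in blood mainly on high-density lipoprotein. During the acute phase response, interleukin 6, interleukin 1 and tumour necrosis factor act on hepatocytes through STAT3, NF-κB and C/EBP factors, and the liver then secretes Saa1 and Saa2 protein in large amounts. Saa3 is made in mice by macrophages and adipocytes as well as by liver, and Saa4 is the form made constitutively by hepatocytes. Fragments of the acute phase forms can deposit as AA amyloid when their blood level stays high.

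The 4 genes lie together on chromosome 7. In the RefSeq gene order of the GRCm38.p6 assembly they stand as Saa3, Saa4, Saa1 and Saa2, between Saal1 and Hps5, with a long noncoding RNA gene after Saa3 and the pseudogene Saa-ps before Saa1. Saa1 lies on the minus strand and Saa2 on the plus strand, with 8853 bases between their start sites, so they are transcribed away from each other. The 250 bases before each start site are shown because Saa1 and Saa2 were both far higher at 21 months while Saa3 and Saa4 differed less. They are RefSeq sequences of GRCm38.p6, written 5′ to 3′ in the direction of the gene. Capitals mark matches, on either strand, to the C/EBP core TTGCNNAA and to the κB consensus.
Saa1 chr7:46742981-46743230 (-): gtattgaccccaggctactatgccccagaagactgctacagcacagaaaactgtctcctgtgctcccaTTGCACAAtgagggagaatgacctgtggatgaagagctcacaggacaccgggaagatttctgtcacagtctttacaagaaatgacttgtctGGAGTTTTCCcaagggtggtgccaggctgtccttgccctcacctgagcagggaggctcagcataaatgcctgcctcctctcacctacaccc
Saa2 chr7:46751583-46751832 (+): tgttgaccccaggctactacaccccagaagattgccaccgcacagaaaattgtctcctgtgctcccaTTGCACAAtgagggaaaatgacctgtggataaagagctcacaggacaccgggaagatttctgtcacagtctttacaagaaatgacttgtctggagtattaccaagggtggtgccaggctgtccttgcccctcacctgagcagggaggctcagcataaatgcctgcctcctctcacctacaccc
Saa3 chr7:46715677-46715926 (-): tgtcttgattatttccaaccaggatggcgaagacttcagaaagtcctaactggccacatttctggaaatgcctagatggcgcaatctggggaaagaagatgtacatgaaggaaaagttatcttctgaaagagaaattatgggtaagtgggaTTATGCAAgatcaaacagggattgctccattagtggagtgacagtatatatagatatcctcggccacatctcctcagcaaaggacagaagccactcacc
Saa4 chr7:46732604-46732853 (-): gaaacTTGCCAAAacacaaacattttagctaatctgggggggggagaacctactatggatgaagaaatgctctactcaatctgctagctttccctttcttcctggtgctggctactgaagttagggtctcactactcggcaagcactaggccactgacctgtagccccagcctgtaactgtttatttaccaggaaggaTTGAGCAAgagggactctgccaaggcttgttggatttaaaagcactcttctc
The Saa1 and Saa2 stretches were 95.6% identical, with 238 of 249 aligned bases the same. Both hold the same C/EBP core match, TTGCACAA, which begins 182 bases before the start in Saa1 and 183 before it in Saa2. Saa1 has a κB match, GGAGTTTTCC, which begins 91 bases before the start. The stretch that aligns with it in Saa2 reads GGAGTATTAC and is no match. Saa3 has 1 C/EBP core match and Saa4 has 2 in these windows. Of 32851 RefSeq promoters searched over the same 250 bases, 9.56% held the C/EBP core and 9.55% the κB consensus. The STAT element TTCNNNGAA was present in 7.02% of all promoters and in none of these 4 windows. A match is a description of letters, and a window without one says only that these letters are not in it.

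The likeness of Saa1 and Saa2 also touches the measurement. Of the 6 probe sets, 1450788_at and 1419075_s_at are annotated to Saa1, 1449326_x_at to Saa2, 1450826_a_at to Saa3, and 1419318_at and 1419319_at to Saa4. The accession behind 1419075_s_at belongs to Saa2 in the current gene table, although its symbol and gene identifier are those of Saa1. The gene table also lists Saa2 as an older name of Saa1 and Saa1 as an older name of Saa2. The endings _s_at and _x_at mark probe sets that can hybridise to several similar transcripts. Values of Saa1 and Saa2 are therefore uncertain as to which of the genes they come from, and 1450788_at is the only one of the 3 without such an ending. Where a gene had several probe sets, the one with the highest mean over the arrays stands for it. Levels of different probe sets cannot be set against each other, so each is compared only with itself across ages.

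All 6 Saa probe sets had their highest level at 21 months and their lowest at 13 months. Saa1 and Saa2 were more than 10-fold higher at 21 months than at each younger age, and Saa3 and Saa4 were 1.39-fold to 1.78-fold higher. Between 4 and 13 months each probe set stayed within a range of 0.09 to 0.52 on the log2 scale, where 1 is 2-fold. The 4 arrays were alike in their medians, from 3.73 to 3.76, and in the gap between the 3′ and 5′ probe sets of Gapdh, from 0.11 to 0.21, a sign of RNA quality. The same gap for β-actin was larger on every array, from 1.01 to 1.16.

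**Figure D1:**
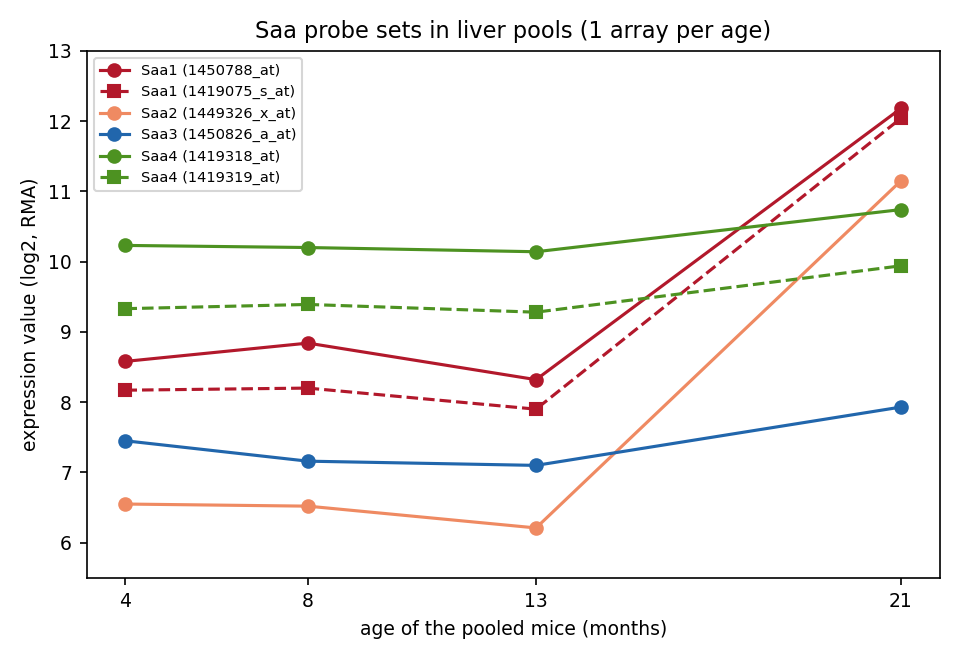
Expression values (log2, RMA) of the 6 Saa probe sets against the age of the pooled mice in months, with 1 array per age and no error bars. The 3 Saa1 and Saa2 probe sets are at 11.15 to 12.18 at 21 months, and heights of different probe sets are not comparable with each other.

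Saa1, the acute phase form, was measured by 1450788_at at 8.58, 8.84, 8.32 and 12.18 at 4, 8, 13 and 21 months (log2 expression values). The 21-month pool stood alone and the 3 younger pools lay within 0.52 of each other. It was higher by 3.6 at 21 than at 4 months, which is 12.1-fold, by 3.34 than at 8 months, 10.1-fold, and by 3.86 than at 13 months, 14.5-fold. The other Saa1 probe set, 1419075_s_at, was at 8.17, 8.20, 7.90 and 12.04. It gave the same order of the oldest and the 13-month pool, with 14.6-fold at 21 vs 4 months. The probe sets differed at 8 months: 1450788_at was higher by 0.26 at 8 than at 4 months, and 1419075_s_at by 0.03.

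Saa2, the other acute phase form, was at 6.55, 6.52, 6.21 and 11.15 by 1449326_x_at. The 4-month and 8-month pools were 0.03 apart, and the 21-month pool was far above all 3. Its level was 24.3-fold higher at 21 than at 4 months, 24.8-fold higher than at 8 months and 30.7-fold higher than at 13 months. Among the 11582 kept genes these differences ranked 2, 1 and 1 from the top, and those of Saa1 ranked 6, 5 and 3. With 1419075_s_at given to Saa2 by its accession, a choice made after the data were seen, Saa2 was higher by 3.87, 3.84 and 4.14 in the same comparisons, against 4.60, 4.63 and 4.94 by 1449326_x_at. The 3 probe sets of Saa1 and Saa2 spanned 1.0 at 21 vs 4 months, so the direction is common to them and the size is not.

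Saa3, made by macrophages among other cells in mice, was at 7.45, 7.16, 7.10 and 7.93. Its level was not flat before 21 months, with 8 and 13 months below 4 months. The difference at 21 vs 4 months was 0.48, or 1.39-fold, and 3.07% of all kept genes had one at least as high. It was 0.77, or 1.71-fold, at 21 vs 8 months and 0.83, or 1.78-fold, at 21 vs 13 months. Saa3 therefore lay past 1.5-fold or not depending on which younger pool it was set against.

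Saa4, the constitutive form, was at 10.23, 10.20, 10.14 and 10.74 by 1419318_at. The younger pools lay within 0.09 of each other. The 21-month pool was higher by 0.51 than the 4-month pool, by 0.54 than the 8-month pool and by 0.60 than the 13-month pool. Its other probe set, 1419319_at, at 9.33, 9.39, 9.28 and 9.94, gave 0.61, 0.55 and 0.66. Of all kept genes, 2.65% had a difference of at least 0.51 at 21 vs 4 months.

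Agreement between probe sets of a gene gives a partial measure of technical spread on these arrays. Over 4795 genes with several probe sets above the filter, the gap between the highest and lowest difference at 21 vs 4 months had a median of 0.17 and a 95th percentile of 0.52. The gap was 0.27 for Saa1 and 0.10 for Saa4, both below that percentile and below the differences themselves. The differences of Saa3, 0.48, and of Saa4 by 1419318_at, 0.51, were also below that percentile, while 1419319_at gave 0.61. At 21 vs 8 months the Saa1 gap was 0.5, under a 95th percentile of 0.56, and 92.6% of genes had a smaller one. The Saa1 gap pairs 1450788_at with 1419075_s_at, whose accession belongs to Saa2, so it may not lie within 1 gene. Saa2 and Saa3 had 1 probe set each and no such check. The gap covers differences between probe sets within an array. It does not cover error shared by a whole array or the spread between mice or pools. A gap is also the spread of several differences, so it is only a rough scale for a single difference.

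By the rule of at least 2-fold, 2 of the 4 genes, Saa1 and Saa2, were higher at 21 vs 4 months, where 0.561% of all kept genes were. The count was also 2 at 21 vs 8 months, where 0.941% of kept genes passed, and 2 at 21 vs 13 months, where 0.311% did. None of the 4 was at least 2-fold lower in these comparisons, as were 0.0345%, 0.13% and 0.0518% of kept genes. By 1.5-fold the higher genes numbered 2 of 4 at 21 vs 4 months, where 2.1% of kept genes passed and 0.423% were lower. They numbered 3 at 21 vs 8 months, with Saa3 (2.66% of kept genes), and all 4 at 21 vs 13 months (1.47%). These comparisons share the 21-month array, so they are not independent of each other. The median of the 4 differences was 2.06 at 21 vs 4 months, against 0.01 over all kept genes.

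**Figure D2:**
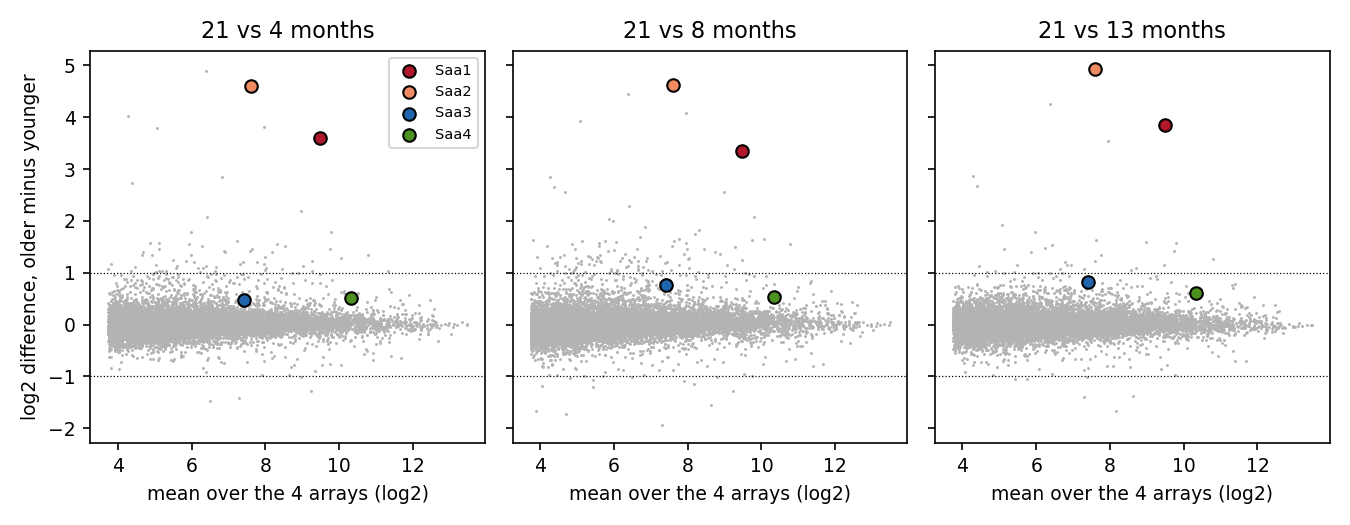
Log2 difference of every kept gene (grey points) and of the Saa genes (coloured) against the mean over the 4 arrays, for 21 months against 4, 8 and 13 months, with dotted lines at 2-fold. Saa1 and Saa2 stand above almost all genes in each panel, and Saa3 and Saa4 lie between 0.48 and 0.83.

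No Saa gene was 1.5-fold higher or lower between the 3 younger ages. Among all kept genes, the shares past 1.5-fold at 8 vs 4 months were 0.501% upward and 0.354% downward. They were 0.838% and 0.458% at 13 vs 4 months, and 0.717% and 0.363% at 13 vs 8 months. At 13 vs 4 months Saa1, Saa2, Saa3 and Saa4 were at -0.26, -0.34, -0.35 and -0.09. Of all kept genes, 5.79%, 2.86%, 2.63% and 25.4% had differences as low or lower. The probe sets of Saa1 gave -0.26 and -0.27 and those of Saa4 -0.09 and -0.05, so the sign was common to all 6 probe sets. At 13 vs 8 months Saa1 was at -0.52 by 1450788_at and at -0.30 by 1419075_s_at, and Saa2 was at -0.31. At 8 vs 4 months Saa3 was at -0.29 and Saa2 and Saa4 both at -0.03.

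Genes with the most similar course were found by the root mean square difference between the deviations of each gene from its own mean over the 4 ages. For Saa2 the nearest kept gene outside the family was Lcn2, an iron-siderophore binding protein, at 4.88, 5.34, 5.53 and 9.78, with a distance of 0.360. For Saa1 it was Orm2, an orosomucoid, at 7.0, 6.73, 7.27 and 10.82, with a distance of 0.387. Saa1 and Saa2 were 0.498 apart from each other. The next genes for Saa1 were Prtn3, Lcn2, Cidea and Slc41a2, at 0.433 to 0.802. For Saa2 they were Orm2, Cidea, Prtn3 and Cyp2b9, at 0.499 to 1.128. At 4, 8 and 13 months Prtn3 was at 3.67, 3.74 and 3.72, and Cidea at 2.69, 3.87 and 3.84. Prtn3 and Cidea passed the filter on level only through the 21-month array. Being kept and lying near Saa1 or Saa2 thus both rest on that array for these genes. Lcn2 and Orm2 were higher at 13 than at 4 months, by 0.65 and 0.27, where Saa1 and Saa2 were lower. No kept gene came within 0.1 of Saa1 or Saa2, whose differences few genes reach.

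The differences of Saa3 and Saa4 were smaller, and more genes lay near them. Nearest to Saa3 were Col4a1, a basement membrane collagen, Trim30a, Slc11a1, a metal transporter of macrophage phagosomes, Sla and Cmpk2, at 0.053 to 0.076. In all, 12 kept genes lay within 0.1 of it. Nearest to Saa4 was Cd14, the lipopolysaccharide co-receptor, at 5.61, 5.56, 5.53 and 6.13, with a distance of 0.012. Nipal3, Apobec1, Fndc3b and Vwa5a followed at 0.029 to 0.041, and 142 kept genes lay within 0.1. Saa3 and Saa4 were 0.123 apart. These distances rest on 4 values per gene and describe these arrays only.

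**Figure D3:**
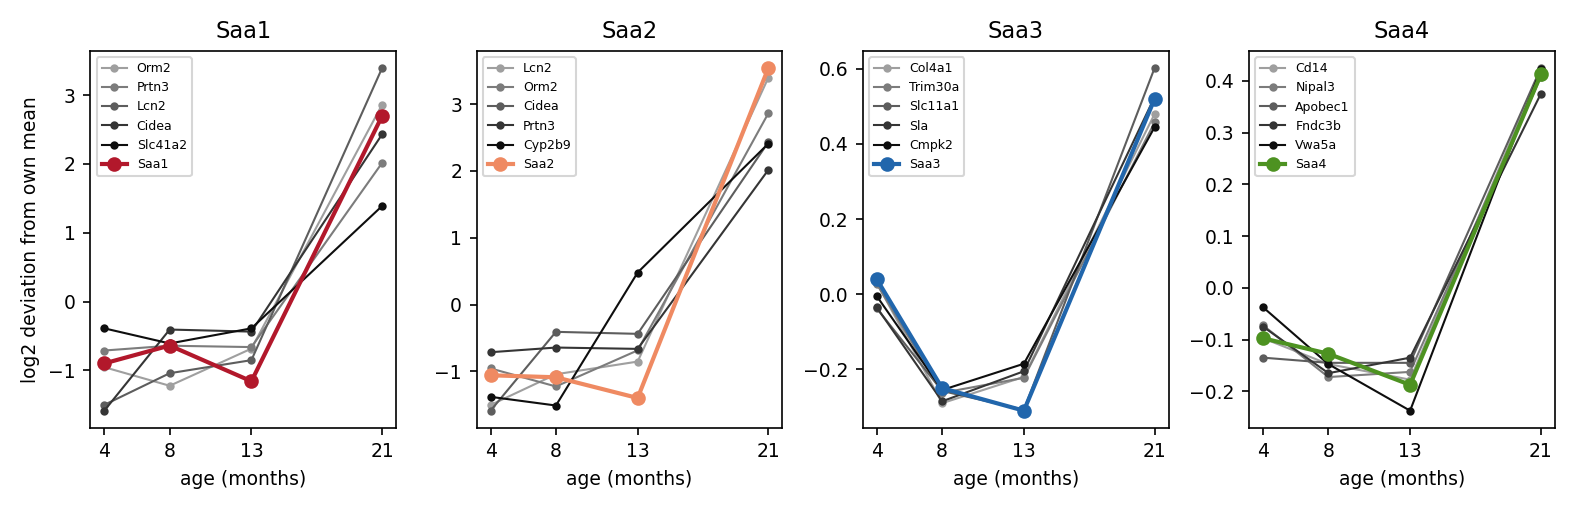
Log2 deviation from the gene's own mean over the 4 ages, for each Saa gene (coloured) and the 5 kept genes nearest to it (grey), against age in months. The vertical scales differ, and those of Saa3 and Saa4 cover a much smaller range than those of Saa1 and Saa2. All 4 Saa genes are lowest at 13 and highest at 21 months.

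The inducing cytokines were dim or differed little. Il6, which encodes the main hepatic inducer, was at 1.98, 2.15, 2.09 and 2.01, below the filter at every age. Il1b was at 5.0, 5.14, 5.15 and 5.23, and Tnf at 4.05, 4.23, 4.12 and 4.18. Neither differed by more than 0.23 between 21 and 4 months. No detection calls were used, so values as low as those of Il6 may be background.

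The 15 kept genes of IL-6 family signalling had a median of 0.20 at 21 vs 4 months, against 0.01 over all kept genes. Of them, 1 was at least 1.5-fold higher (2.1% of all kept genes) and none lower (0.423%). It was Stat3, the transcription factor that carries the signal to the nucleus, at 8.30, 8.09, 8.37 and 8.93. Its difference of 0.63 was the highest of 3 probe sets above the filter, and the lowest gave 0.15. Socs3, the feedback inhibitor that STAT3 induces, was at 6.70, 7.07, 6.46 and 7.11. It was nearly as high at 8 as at 21 months, while Saa2 was far lower at 8 months. The receptor chain Il6ra was at -0.20 at 21 vs 4 months, the shared chain Il6st was higher by 0.22, and the kinases Jak1 and Jak2 were higher by 0.05 and 0.20. The phosphatase gene Ptpn11 differed by 0.03.

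The 24 kept genes of IL-1, TNF and NF-κB signalling had a median of 0.06 at 21 vs 4 months. Of them, 1 was at least 1.5-fold higher (2.1% of all kept genes) and none lower (0.423%). Nfkbiz, an inducible nuclear IκB protein, was at 5.53, 5.51, 5.39 and 6.30, higher by 0.77, but the lowest of its 3 probe sets gave 0.09. The NF-κB subunit Rela was at 7.90, 7.85, 7.90 and 7.90. The inhibitor Nfkbia, itself a target of the pathway, was at -0.01. The interleukin 1 receptor Il1r1 was at 6.75, 6.48, 6.14 and 6.79, lowest at 13 months as the Saa genes were. Nfkb1 was not analysed here.

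None of 11 kept genes for C/EBP and other factors reported to act on Saa promoters was 1.5-fold apart at 21 vs 4 months, and their median was 0.01. Of all kept genes, 2.1% were higher by that much and 0.423% lower. Cebpb, an acute phase activator of Saa genes, was at 10.19, 9.91, 10.20 and 10.18. Cebpd was at 6.58, 6.21, 6.49 and 6.71. Both were lowest at 8 months. These values are RNA levels, and activity of the factors was not measured.

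Other acute phase genes were higher with Saa1 and Saa2, in a list chosen with earlier results of these data known. The 24 kept members of the acute phase list had a median of 0.50 at 21 vs 4 months. Of them, 10 were at least 1.5-fold higher (2.1% of all kept genes) and none lower (0.423%). Apcs, the pentraxin that is bound to amyloid deposits and is a main acute phase protein of mice, was at 9.42, 9.23, 9.45 and 10.87, or 2.73-fold higher at 21 vs 4 months. The metallothionein genes Mt2 and Mt1 were 4.56-fold and 3.43-fold higher, and Orm3 was 4.2-fold higher. For Mt1 that is a difference of 1.78, and the lower of its 2 probe sets above the filter gave 0.99. Haptoglobin, Hp, was higher by 0.48, the size of the Saa3 difference, and Orm1 by 0.69. Crp, a minor acute phase gene in mice, was higher by 0.08 and Hamp2 by 0.09.

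Genes that the liver expresses less during the acute phase did not differ as a group. Of 14 kept members none was 1.5-fold higher (2.1% of all kept genes) or lower (0.423%) at 21 vs 4 months, and the median was -0.01. Albumin, Alb, was at 13.49, 13.43, 13.49 and 13.48, and transthyretin, Ttr, at 13.12, 13.10, 13.10 and 13.08. Both lie near 13.7, the highest value on the arrays. Igf1, at 11.08, 11.04, 11.05 and 11.07, also differed by -0.01.

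**Figure D4:**
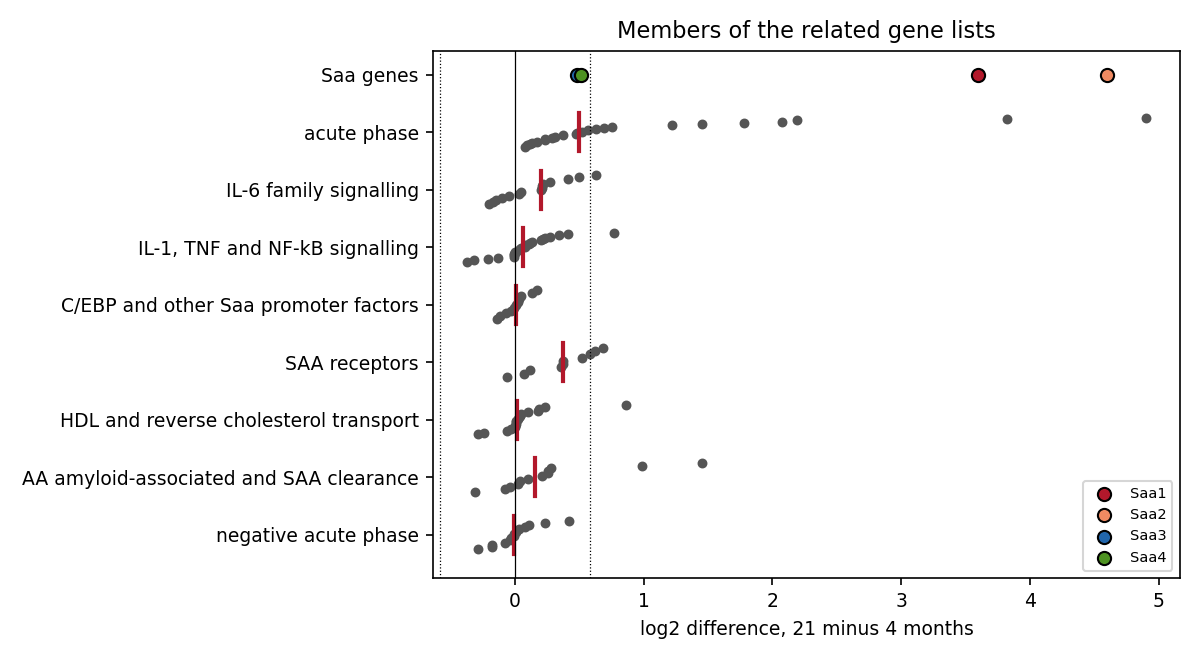
Log2 difference at 21 minus 4 months of the Saa genes (top row, coloured) and of the kept members of 8 gene lists (grey points, red bar at the list median), with dotted lines at 1.5-fold. The acute phase member Orm2, at 3.82, lies between Saa1 and Saa2, Lcn2, at 4.90, lies above both, and no signalling or promoter factor gene passes 1.

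Saa protein is carried on high-density lipoprotein. The 18 kept genes of that particle and of cholesterol transport had a median of 0.02 at 21 vs 4 months. Of them, 1 was at least 1.5-fold higher (2.1% of all kept genes) and none lower (0.423%). Apoa1, its main apolipoprotein, was at 13.13, 13.11, 13.12 and 13.14, and Apoa2 at 13.30, 13.33, 13.35 and 13.34, near the highest value on the arrays, 13.7. Apoa4 was at 8.65, 9.13, 9.44 and 8.88, with its highest level at 13 months. The cholesterol-esterifying enzyme Lcat was higher by 0.05, the lipoprotein receptor Scarb1 was at -0.06, and Apoc1 and Abcg8 were at 0.00. Pltp, the phospholipid transfer protein, was the 1 past 1.5-fold, at 7.56, 7.47, 7.73 and 8.42, or 1.82-fold higher at 21 vs 4 months.

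Receptors reported to bind SAA were somewhat higher at 21 months. Of 10 kept genes, 2 were at least 1.5-fold higher than at 4 months (2.1% of all kept genes) and none lower (0.423%). The median of the 10 was 0.37. Fpr2, the formyl peptide receptor through which SAA attracts leukocytes, was at 5.49, 4.86, 5.61 and 6.17, and Cd36, a scavenger receptor, at 7.71, 8.06, 8.04 and 8.33. Tlr2 was higher by 0.37. Tlr4, at 3.52, 3.74, 3.46 and 3.90, was below the filter. Of 12 kept genes for AA amyloid-associated proteins and SAA clearance, 2 were at least 1.5-fold higher and none lower, with a median of 0.16. They were Apcs and Ctss, a macrophage cathepsin, higher by 1.45 and 0.99, while Apoe, an amyloid-associated apolipoprotein, was higher by 0.02. Apcs is also in the acute phase list and Ctss among the macrophage markers.

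Cell type markers were measured beside the Saa genes. The 11 kept hepatocyte markers were present at a mean of 11.94, 11.85, 11.87 and 11.86 at the 4 ages, and none was 1.5-fold apart at 21 vs 4 months, with a median of -0.07. Macrophage and Kupffer cell markers moved with age. Of 17 kept, 11 were at least 1.5-fold higher at 21 vs 4 months (2.1% of all kept genes) and none lower (0.423%). The mean level of the 17 was 7.37, 6.97, 7.51 and 8.07. Itgam, an integrin of myeloid cells, was below the filter. Saa3 had the same direction as the marker median at 8 vs 4 months and at 21 months against each younger age. At 21 vs 4 months Saa3 was at 0.48 and the marker median at 0.73. It had the opposite one at 13 vs 8 months, at -0.06 where the markers had a median of 0.50, and at 13 vs 4 months, at -0.35 against 0.14. The part of macrophages in the Saa3 values was not tested.

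**Figure D5:**
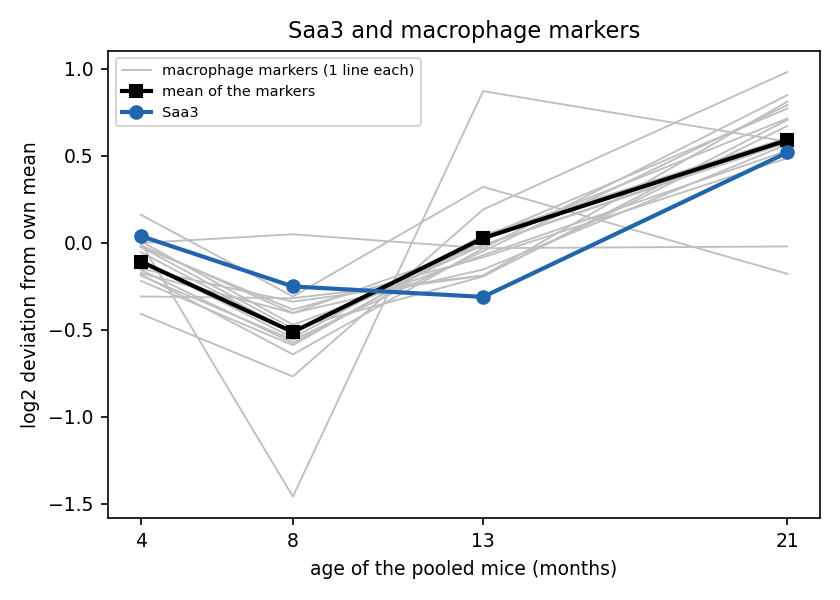
Log2 deviation from each gene's own mean over the 4 ages, for Saa3 (blue), 17 macrophage and Kupffer cell markers (grey) and their mean (black), against age in months. Saa3 and the marker mean are both highest at 21 months, and at 13 months Saa3 is at its lowest while the marker mean is not.

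Of 16 listed neutrophil markers 8 passed the filter, with a mean of 4.49, 4.74, 4.76 and 5.87. At 21 vs 4 months 4 were at least 1.5-fold higher (2.1% of all kept genes), Lcn2, Prtn3, S100a9 and S100a8, and none lower (0.423%). Prtn3, at 3.67, 3.74 and 3.72 at 4, 8 and 13 months, passed the filter only through the 21-month array. Its place in this count and its part in the 21-month mean therefore rest on the array that let it pass. Lcn2 is also in the acute phase list. Ngp and Elane, granule genes of immature neutrophils, were at 0.19 and -0.11, and Camp, Mmp8, Mmp9, Cxcr2, Mpo and Itgam were below the filter. The adipocyte markers Adipoq and Lep were below the filter at every age. Cidec, a lipid droplet protein, was below it by its mean, at 2.93, 3.45, 3.55 and 4.05, a 2.17-fold higher level at 21 vs 4 months. By the probe set that stands for each gene, none of 7 kept adipocyte markers was 1.5-fold higher (2.1%) or lower (0.423%) at 21 vs 4 months (median 0.07). Car3, higher by 0.06 with that probe set, was higher by 1.35 with the highest of its 4 probe sets above the filter. The part of these cells in the Saa values was not tested.

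The bile duct and gut epithelium markers, of which 9 of 19 passed the filter, had a mean of 5.51, 6.01, 5.42 and 5.56. The mean was highest at 8 months, when Ltf was higher by 1.94 and Cd24a by 1.83 than at 4 months, while other members such as Krt8 and Krt18 were highest at 21 months. Ltf, at 3.28, 5.22, 3.53 and 3.56, passed the filter only through the 8-month array, here and among the neutrophil markers. At 21 vs 4 months none of the 9 was at least 1.5-fold higher and 1 was lower, Cdh1, at 6.99, 6.55, 5.96 and 6.07. Krt19, below the filter by its mean, was at 3.48, 4.99, 3.32 and 2.99. Dmbt1, a mucosal protein below the filter by its mean, was at 2.35, 7.30, 2.08 and 1.86. At 8 vs 4 months Saa1 was higher by 0.26 with 1450788_at and by 0.03 with 1419075_s_at, Saa4 was at -0.03 and 0.06 with its probe sets, and Saa2 and Saa3 were at -0.03 and -0.29. The part of these cells in the Saa1 value was not tested. The 8 kept markers of B and plasma cells had a median of 0.18 at 21 vs 4 months. Of them, 3 were at least 1.5-fold higher (2.1% of all kept genes) and none lower (0.423%). They were Ighm, higher by 2.84 but by 0.0 with the lowest of its 6 probe sets above the filter, Jchain, higher by 1.58, and Cd74, higher by 1.08. Of 8 T and NK cell markers 1 was at least 1.5-fold higher, Ccl5, with a median of 0.14. None of 13 sinusoidal endothelium and stellate cell markers was 1.5-fold apart, with a median of 0.12. The part of these cells in the Saa values was not tested.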

How the data were processed

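Liver RNA pools of 4 ages, 1 array each, were grouped by the labelled age. The deposited values are log2 expression values made with RMA (background correction, normalization between arrays, summary per probe set), per the submitters' processing notes. These notes give neither the RMA version nor the set of arrays it was run on. RMA brings array distributions together and compresses differences of dim probe sets.

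Names come from the annotation of the platform, and of 34945 probe sets with 1 symbol 34741 had a gene identifier in the RefSeq table of GRCm38.p6. The probe set with the highest mean stood for a gene, and genes at or above 3.74, the median of probe set means, were kept. No test was possible with 1 array per age. Genes were counted at 2-fold, and list members at 1.5-fold. Members, 8 gene lists and 8 marker lists were chosen with earlier results of these data known, and motifs after the Saa values were seen. Named list genes were up to 6 past 1.5-fold, the 2 smallest differences and a fixed set of regulators, and for each Saa gene the 5 nearest genes. The counting was tested on simulated data. Python 3.11.15, pandas 2.3.3, numpy 2.4.6, biopython 1.88, R 4.3.3 and limma 3.58.1 (alternative normalizations) were used.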

Additional observations from a re-analysis of the deposited data

How the results depend on the processing

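Settings tried were averaging the probe sets of each gene, median centring, quantile and cyclic loess normalization, no filter or one at 5.72, the mean of the 3 younger arrays as baseline, other fold rules, each other probe set alone, and leaving out probe sets ending in _s_at, _x_at or _a_at, which leaves no value for Saa2 and Saa3. Over them the 21 vs 4 month difference of Saa1 ran from 3.57 to 3.87, of Saa2 from 3.87 to 4.72, of Saa3 from 0.45 to 0.69 and of Saa4 from 0.47 to 0.61. Of 110 counts of Saa genes 109 stayed within 1.5 times of the reported one. The exception was 21 vs 13 months at a 1.5-fold rule, with 4 genes higher, which follows from the lower threshold. Of 196 Saa differences none changed sides of 2-fold and 3 moved by over 1.5-fold, those of Saa2 with the accession naming 1419075_s_at, an alternative added after the data were seen. Of 1172 counts of list members 63 moved by over 1.5 times. The median of the neutrophil markers at 21 vs 4 months was 0.82, but 0.22 with no filter and 3.12 with the filter at 5.72. The filter at 5.72 left only Lcn2 and S100a8, higher by 4.9 and 1.35. Their means reached 5.72 only with the 21-month array, so the value of 3.12 rests on the array that let them pass. No paired analysis was possible because each age has 1 array. No replicate could be left out for the same reason, and dim probe sets such as Il6 have no detection calls.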

Other observations

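Several genes of the same lists also differed between the younger ages, where no Saa gene reached 1.5-fold. Marco, a macrophage scavenger receptor in the list of SAA receptors, was at 5.88, 4.42, 6.75 and 6.46 at 4, 8, 13 and 21 months. Of the 10 kept receptors, 2 were at least 1.5-fold lower at 8 vs 4 months (0.354% of all kept genes) and none higher (0.501%). They were Marco at -1.46 and Fpr2 at -0.63. Marco is also among the macrophage markers, whose median was -0.39 in that comparison. Cish, a feedback inhibitor of cytokine receptors, was at 7.26, 7.71, 7.75 and 7.09. Hamp2 was at 9.80, 9.03, 9.56 and 9.89, lowest at 8 months. These genes were chosen after their values were seen.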
